A study of Mus musculus with 10 samples.

Results

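A group of 9 genes of the interferon pathway and of siRNA sensing was examined in C2C12 cells, a mouse myoblast line whose cells fuse into myotubes when serum is lowered. The genes were *Ifih1*, *Eif2ak2*, *Stat2*, *Irf9*, *Irf7*, *Irf1*, *Isg15*, *Ifitm3* and *Bst2*, chosen by symbol from the 55359 genes of the deposited table, and all 9 had counts. The cells of 5 libraries received a control siRNA (si-Control) and those of the other 5 an siRNA against *Fndc1* (si-*Fndc1*). All cells were transfected and then kept in differentiation medium with 2% horse serum, and the labels place RNA extraction at 4 days, whereas the series' description gives 48 h after transfection with 100 nM siRNA. No genotype, drug or other agent distinguished the groups, every library came from the same cell line, and the labels do not say whether the libraries of a group came from separate cultures, so the p-values measure the spread between libraries, which may be technical. No library of untransfected or mock-transfected cells was analysed here, so the comparison bears on whether the groups differed and not on a response that both may have had.

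Cells detect double-stranded RNA through cytosolic sensors such as Rig-I and, for long duplexes, Mda5 (encoded by *Ifih1*), through endosomal Toll-like receptors, and through the kinase Pkr (encoded by *Eif2ak2*), which halts translation when it binds such RNA. The sensors signal through adaptors and kinases to interferon regulatory factors, which switch on interferon genes. Secreted interferon then acts through its receptors and Janus kinases on a complex that holds Stat2 and Irf9, which binds the interferon-stimulated response element (ISRE) and raises antiviral genes such as *Isg15*, *Ifitm3* and *Bst2*. Most of the sensors are themselves interferon-stimulated, so the level of the 9 genes is commonly read as a sign of this response in transfected cells.

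The promoters of the 9 genes were looked at first, because the ISRE is an element through which interferon raises such genes. RefSeq promoter windows (GRCm38.p6, 250 bases before to 50 after an annotated start) were found for all 9 genes, in 11 windows, and were searched on both strands for an ISRE written as GAAANNGAAA. It was present in 6 of the 9 genes, against 3.99% of 27025 genes and 3.44% of all 32851 windows. The 9 were chosen as interferon pathway genes, and it was also common in some of the lists used below. It was in 11 of 20 interferon genes, 10 of 21 interferon gamma and antigen presentation genes and 10 of 32 other antiviral genes. None was found in 9 receptor and Janus kinase genes or in 12 genes of the RNA interference machinery. The windows of the 2 genes that passed the test below, *Isg15* (chr4:156200769-156201068, minus strand) and *Ifitm3* (chr7:141010695-141010994, minus strand), are given whole, 5′ to 3′ on the gene's strand, with the ISRE in capitals.
Isg15 promoter: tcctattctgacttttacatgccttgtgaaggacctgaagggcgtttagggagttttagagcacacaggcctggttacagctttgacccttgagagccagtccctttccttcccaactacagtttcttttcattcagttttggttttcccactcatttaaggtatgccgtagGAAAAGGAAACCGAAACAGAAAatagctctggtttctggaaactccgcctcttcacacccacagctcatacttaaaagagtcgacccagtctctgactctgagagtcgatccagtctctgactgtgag
Ifitm3 promoter: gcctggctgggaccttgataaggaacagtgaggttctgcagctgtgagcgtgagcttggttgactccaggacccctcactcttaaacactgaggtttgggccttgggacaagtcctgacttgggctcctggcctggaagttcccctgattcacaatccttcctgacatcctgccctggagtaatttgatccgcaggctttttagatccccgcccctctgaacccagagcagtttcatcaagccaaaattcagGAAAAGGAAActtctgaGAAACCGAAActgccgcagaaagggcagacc
In *Isg15* 3 overlapping copies began 78, 72 and 66 bases before the start, so that the capitals form a single run. In *Ifitm3* the copies began 2 and 19 bases after the start.

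The other genes with an ISRE in the window are shown by the element with its flanks, again on the gene's strand and in capitals, to let the copies be compared.
Bst2, first copy: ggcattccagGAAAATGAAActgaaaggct
Bst2, second copy: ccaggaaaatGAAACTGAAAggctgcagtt
Eif2ak2: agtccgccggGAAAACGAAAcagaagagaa
Ifih1: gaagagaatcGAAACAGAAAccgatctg
Stat2: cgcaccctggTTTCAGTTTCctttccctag
The *Bst2* copies overlapped each other at offsets of -130 and -124 bases, the *Eif2ak2* and *Ifih1* copies lay 18 and 32 bases after the start, and the *Stat2* copy, which reads in the opposite direction, began at -222. The gamma-activated site, written as TTCNNNGAA, an element of the interferon gamma response, was present in the windows of *Bst2*, *Eif2ak2*, *Ifitm3* and *Irf1*, 4 of 9 genes against 9.55% of all genes (8.30% of windows). This site was also in 10 of 20 interferon genes and 4 of 11 negative regulators of the pathway, but in only 3 of 32 other antiviral genes. In *Bst2* and *Ifitm3* it overlapped an ISRE. *Irf7* and *Irf9* held neither set of letters in these windows. Such a match describes the sequence and does not show binding.

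**Figure D1:**
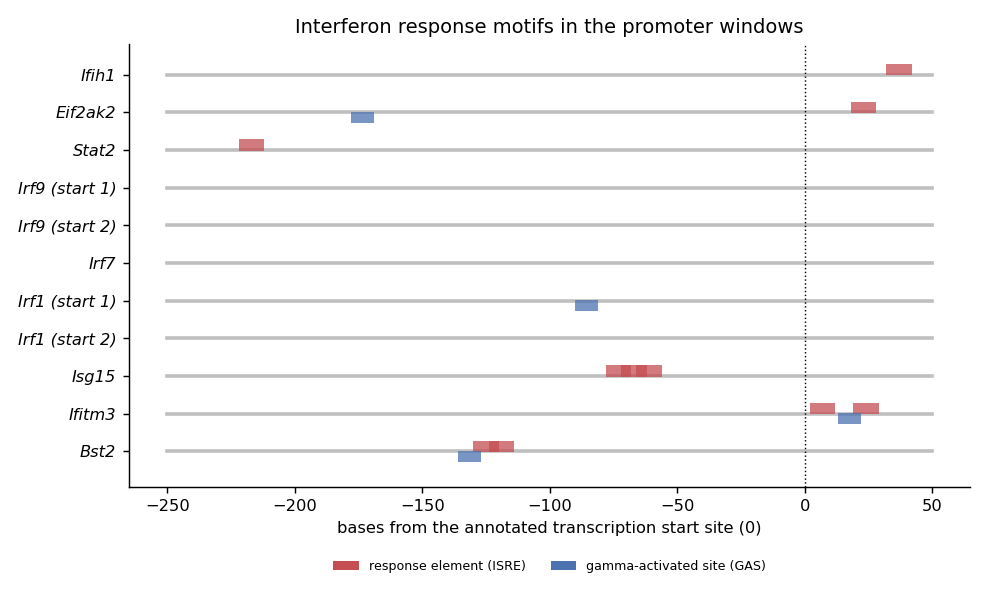
Positions of the ISRE (red) and the gamma-activated site (blue) in the 11 promoter windows of the 9 genes, as bases from the annotated transcription start site; a grey line is a window, and *Irf1* and *Irf9* have 2 starts each. *Isg15* and *Bst2* hold their copies upstream of the start, and *Ifitm3*, *Eif2ak2* and *Ifih1* just after it.

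The libraries held 56332844 to 75995168 counts, and *Fndc1* itself, which checks the labels, was at 27.8 ± 2.04 FPKM (SD, n = 5) in si-Control and 20.9 ± 1.70 (SD, n = 5) in si-*Fndc1*, with no overlap between the groups and a change of -0.40 on the log2 scale (edgeR, adjusted p = 0.000934). Once GC content and transcript length were corrected for, that change was -0.067 (adjusted p = 0.301). FPKM is the count scaled to transcript length and library size. The length used in the correction was the one implied by each gene's counts and FPKM, not an annotated length. Low counts piled up at multiples of 4 in the table (4 was listed 10699 times, 3 and 5 only 3967 and 2243 times), so 1 listed count need not be 1 read and limits set from counts are too narrow. In the si-*Fndc1* libraries 16 hepatocyte markers, which muscle cells lack, summed to 57.5 to 199.9 FPKM, whereas their sum in si-Control was 0.191 to 6.92 FPKM, and their part in the values below was not tested. The log2 fold change also went with GC content, with a Spearman correlation of -0.53 across 11185 genes, which are not independent replicates, and the corrected value is given beside each named gene whose call it ends or whose direction it turns. The cause of these moves was not tested.

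Of the 9 genes, 7 reached the mean of 0.5 FPKM that was set for testing. Of these 2 passed edgeR's quasi-likelihood test at an adjusted p under 0.05, *Isg15* and *Ifitm3*, and both rose in si-*Fndc1*. Among all 13548 tested genes 34.4% passed, 17.3% upwards and 17.2% downwards, so that 2 of 7 is close to the share of all genes. DESeq2 gave the same number, 2 of 7, against 37.0% of all genes. The median log2 fold change of the 7 genes was 0.069, against 0.0043 for all tested genes. The groups did not overlap in 1 of the 7, against 25.1% of all tested genes. Once GC content and length were corrected for, neither *Isg15* nor *Ifitm3* passed, against 23.6% of the 11185 genes in that fit, and 1 of the 7 had an unadjusted p under 0.05, as did 4024 of the 11185.

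**Figure D2:**
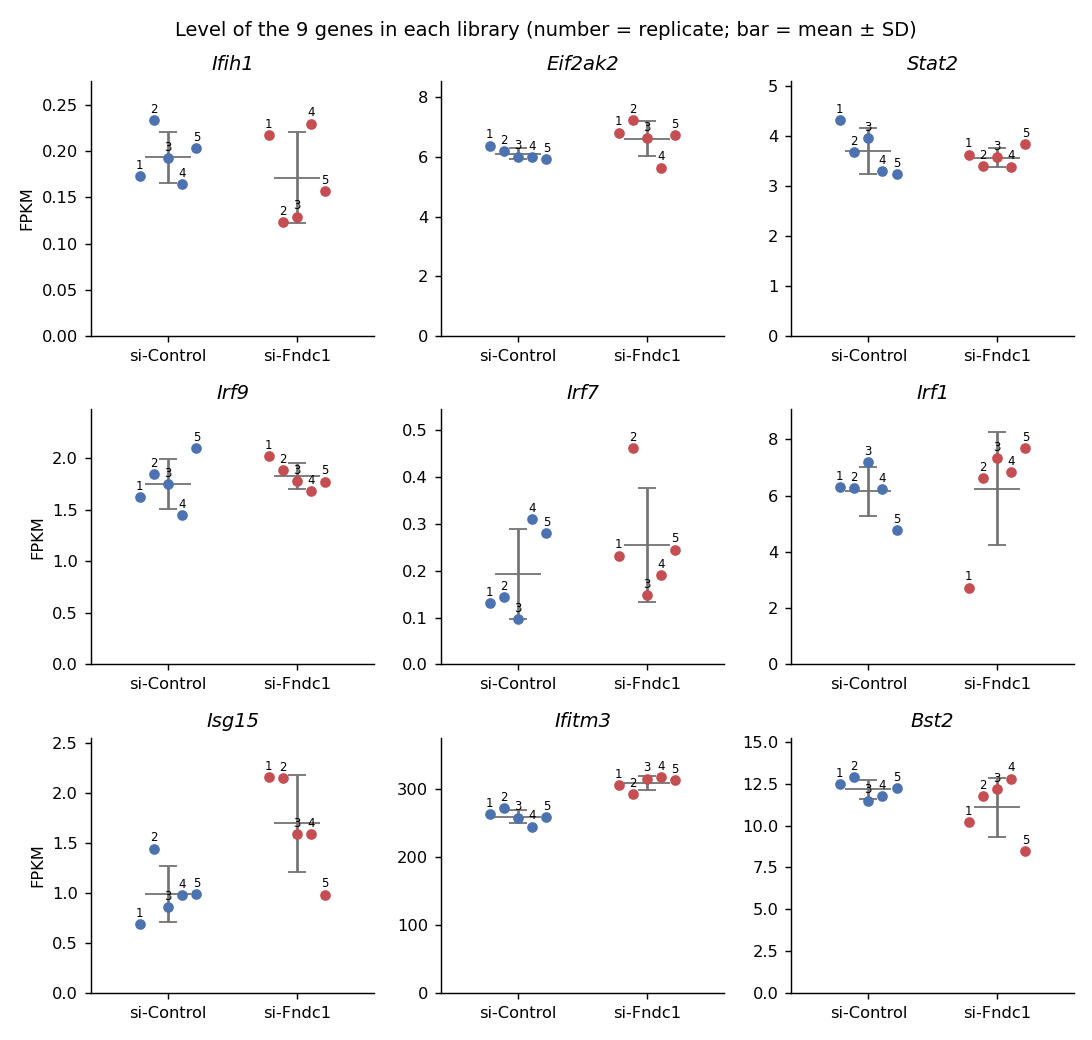
Level of each of the 9 genes in FPKM (linear axis from 0) in the 5 si-Control (blue) and 5 si-*Fndc1* (red) libraries; digits are replicate numbers, and the grey bar is the mean ± SD. *Ifitm3* is the one gene in which the groups do not overlap, 4 of 5 si-*Fndc1* libraries are above all si-Control libraries for *Isg15* and *Eif2ak2*, and *Irf1* has 1 low si-*Fndc1* library at 2.73 FPKM.

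*Ifih1* encodes the cytosolic sensor of long double-stranded RNA. Its level was 0.173, 0.234, 0.192, 0.164 and 0.203 FPKM in si-Control libraries 1 to 5 and 0.218, 0.124, 0.129, 0.230 and 0.156 in si-*Fndc1* libraries 1 to 5, with 80 to 153 counts. The ranges overlapped, with si-*Fndc1* libraries 2, 3 and 5 below all controls and the other 2 within their range. *Ifih1* was below the level set for testing, and in a fit without that filter its log2 fold change was -0.17 (SE 0.21, adjusted p = 0.648). The exact permutation test of the FPKM means gave p = 0.413 (two-sided, as are all the permutation tests, with 0.00794 the smallest p that 5 against 5 libraries allow). Such tests were run for all 9 genes, for *Fndc1* and for the genes of the other lists, and their p-values are not adjusted.

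*Eif2ak2* encodes the double-stranded RNA-dependent kinase. Its level was 6.38, 6.21, 6.01, 6.01 and 5.92 FPKM in si-Control and 6.82, 7.24, 6.65, 5.64 and 6.74 in si-*Fndc1*. All si-*Fndc1* libraries but the fourth were above every si-Control library, and the fourth was below them all. The log2 fold change was 0.12 (SE 0.062, 95% interval -0.020 to 0.27), which did not pass (adjusted p = 0.15, edgeR, and p = 0.111 by exact permutation). Without si-*Fndc1* library 4 it was 0.18 and passed (adjusted p = 0.0167), and when GC content and length were corrected for, with all libraries, it was -0.034 (adjusted p = 0.732).

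*Stat2* and *Irf9* encode subunits of the interferon-stimulated gene factor. *Stat2* was at 4.33, 3.68, 3.96, 3.31 and 3.24 FPKM in si-Control and at 3.64, 3.41, 3.59, 3.40 and 3.84 in si-*Fndc1*. The si-*Fndc1* values all lay within the range of the controls, whose spread was the wider (SD 0.456 against 0.184). Its log2 fold change of -0.045 (SE 0.082, 95% interval -0.23 to 0.14) did not pass (adjusted p = 0.711, edgeR) and took the opposite sign without si-Control library 1 (0.018, adjusted p = 0.873) or with the GC and length correction (0.015, adjusted p = 0.916).

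*Irf9* was at 1.62, 1.85, 1.75, 1.45 and 2.10 FPKM in si-Control and at 2.02, 1.88, 1.78, 1.69 and 1.78 in si-*Fndc1*. Here too every si-*Fndc1* value fell within the control range. The log2 fold change was 0.069 (SE 0.097, 95% interval -0.16 to 0.29, adjusted p = 0.624, edgeR). The start of *Irf9* overlaps *Rnf31*, a gene on the same strand with 956 to 1544 counts, so reads of the overlap cannot be told apart.

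*Irf7*, the factor that amplifies interferon production and is itself strongly interferon-inducible, was among the lowest of the 9. It was at 0.132, 0.144, 0.0975, 0.309 and 0.280 FPKM in si-Control (30 to 97 counts) and at 0.232, 0.461, 0.148, 0.190 and 0.245 in si-*Fndc1* (46 to 145 counts). The highest value was that of si-*Fndc1* library 2, and the other 4 lay within the control range. Without the filter on low levels the log2 fold change was 0.42 (SE 0.38, adjusted p = 0.50, edgeR), and the exact permutation p was 0.421. *Irf7* (chr7:140842619-140846394 as listed in the table, which names no build; the submitters' processing notes name GRCm39) overlaps at chr7:140842619-140842663 the oppositely oriented *Phrf1*, which had 2057 to 3821 counts, and whether the counting used strand is not given in the sources used here.

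*Irf1*, a factor that also acts early in the response to interferon gamma, was at 6.29, 6.26, 7.19, 6.22 and 4.77 FPKM in si-Control and at 2.73, 6.63, 7.33, 6.84 and 7.68 in si-*Fndc1*. Library 1 of si-*Fndc1* lay far below the other 9 libraries, whereas libraries 3 and 5 of that group were above every control. The group means of 6.15 ± 0.867 and 6.24 ± 2.00 FPKM (SD, n = 5 each) were nearly equal, so that the log2 fold change was 0.030 (SE 0.23, 95% interval -0.51 to 0.57, adjusted p = 0.935, edgeR). Without si-*Fndc1* library 1 it was 0.22 and did not pass either (adjusted p = 0.131). Its sign turned, with values no lower than -0.048, without si-Control library 5 or without si-*Fndc1* library 3, 4 or 5.

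*Isg15* encodes a ubiquitin-like protein that is conjugated to other proteins after interferon. Its level was 0.691, 1.44, 0.856, 0.981 and 0.990 FPKM in si-Control (42 to 81 counts) and 2.16, 2.15, 1.59, 1.59 and 0.985 in si-*Fndc1* (44 to 123 counts). Libraries 1 to 4 of si-*Fndc1* were above all controls, with libraries 1 and 2 highest, and library 5 fell among the controls. The mean was 0.992 ± 0.280 FPKM in si-Control and 1.70 ± 0.488 in si-*Fndc1* (SD, n = 5 each), a ratio of 1.71. The log2 fold change of 0.78 (SE 0.25, 95% interval 0.19 to 1.36) passed (adjusted p = 0.0355, edgeR), and the exact permutation p was 0.0238. The call did not hold when 1 library was left out in 8 of 10 cases (adjusted p = 0.0545 to 0.0815), which were every library other than si-Control 2 (adjusted p = 0.0145) and si-*Fndc1* 5 (adjusted p = 0.0124). After the GC and length correction it was 0.61 (adjusted p = 0.122).

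*Ifitm3* encodes a membrane protein that blocks the entry of enveloped viruses and was by far the most abundant of the 9. It was at 263, 272, 258, 245 and 259 FPKM in si-Control and at 306, 293, 316, 318 and 313 in si-*Fndc1*, with 13059 to 17231 counts. Every si-*Fndc1* library was above every si-Control library. The means of 259.6 ± 9.83 and 309 ± 10.2 FPKM (SD, n = 5 each) had a ratio of 1.19, and the log2 fold change of 0.26 (SE 0.036, 95% interval 0.18 to 0.34) passed (adjusted p = 0.000351, edgeR), with an exact permutation p of 0.00794. It passed without any one library (adjusted p = 0.000364 to 0.00150). After the GC and length correction it was 0.037 (adjusted p = 0.410). *Ifitm3* is closely similar in sequence to *Ifitm2*, so its count is uncertain where reads could match either gene.

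*Bst2* encodes tetherin, which holds budding virus particles at the cell surface. It was at 12.5, 12.9, 11.5, 11.7 and 12.3 FPKM in si-Control and at 10.2, 11.8, 12.2, 12.8 and 8.47 in si-*Fndc1*. Libraries 5 and 1 of si-*Fndc1* were below all controls, and the other 3 lay within the control range. Its log2 fold change of -0.13 (SE 0.11, 95% interval -0.37 to 0.12) did not pass (adjusted p = 0.403, edgeR, and p = 0.254 by exact permutation).

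**Figure D3:**
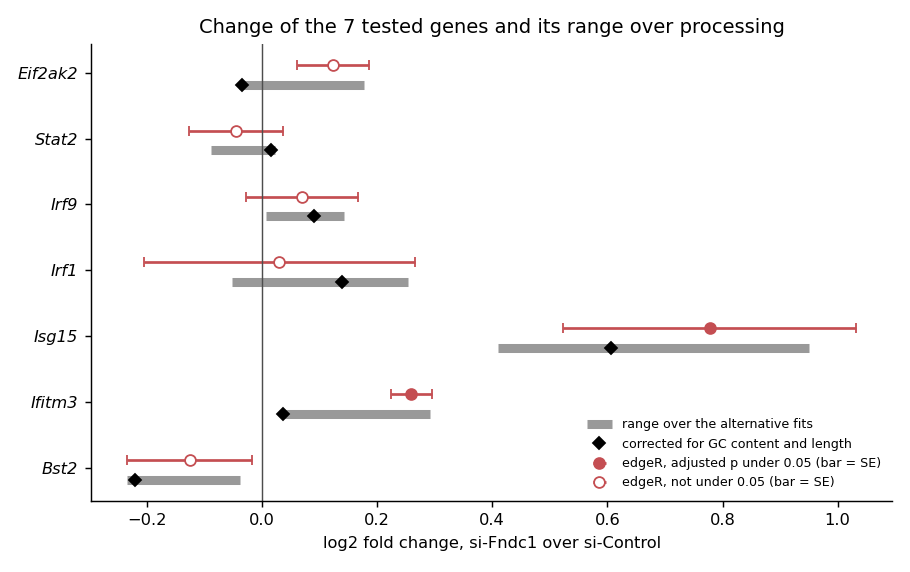
Log2 fold change of si-*Fndc1* over si-Control for the 7 tested genes (circles, filled where the adjusted p is under 0.05, bars SE), with the range over the alternative fits (grey) and the value corrected for GC content and length (black diamonds). The *Ifitm3* value moves from 0.26 to 0.037 with the correction, that of *Isg15* from 0.78 to 0.61, and *Eif2ak2* and *Stat2* cross 0.

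On the FPKM scale the genes stood in a similar order of level in both groups. In si-Control *Ifitm3* stood above *Bst2*, followed by *Irf1* and *Eif2ak2* (6.15 and 6.11 FPKM), whose libraries overlapped, then *Stat2*, *Irf9*, *Isg15*, and *Ifih1* and *Irf7* (0.193 FPKM each), which again overlapped. In every other step of that order each library of the higher gene was above each library of the lower one. In si-*Fndc1* the libraries of *Eif2ak2*, *Irf1* and *Stat2* overlapped from one to the next, as did those of *Irf9* and *Isg15* (1.83 and 1.70 FPKM) and those of *Irf7* and *Ifih1*. The coefficient of variation between libraries was lowest for *Eif2ak2* and *Ifitm3* in si-Control (3.08% and 3.79%) and reached 49.6% for *Irf7*.

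The libraries of a group differed in the mean level of the tested genes. Expressed as the mean standardised deviation of the 7 tested genes from their group mean, the libraries lay between -0.76 (si-Control 4) and 0.62 (si-Control 2), and between -0.36 (library 5) and 0.38 (library 3) in si-*Fndc1*. In FPKM, si-Control library 4 was below its group mean for all tested genes but *Irf1*, and si-Control library 2 above it for all but *Stat2*. Among the 13488 other tested genes with a symbol, those whose own deviations correlated best with this mean over the 10 libraries were *Gfra4* (Pearson r = 0.991), *Ywhaq-ps3* (0.939), *B4galt3* (0.931), *Riox1* (0.928) and *Ankrd49* (0.918). They belong to no list of pathway genes used here, and the correlations are a description over 10 libraries that share the same group means.

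The other genes of the pathway were taken from 9 lists of 174 genes in all. Of these 96 were tested, and 28 of them (29.2%) passed, 11 higher and 17 lower in si-*Fndc1*, against the 34.4% of all tested genes. In the lists with tested genes the share that passed was 10.0% to 45.5%, and each count below is to be read beside that 34.4%. The median log2 fold change of the 96 was -0.029. With the GC and length correction 17 passed, 3 higher and 14 lower, where 23.6% of all 11185 genes in that fit passed in either direction. The share of the pathway calls that were higher thus went from 39.3% to 17.6%. The number of the 96 in that fit and the split by direction over all its genes are not given here. The move is therefore not shown to be particular to the pathway.

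Among the 20 other RNA sensors and their cofactors only 5 reached the tested level, with a list median of 0.069. The most abundant of those that did not pass were *Trim25*, the ubiquitin ligase of Rig-I, at 0.17 on the log2 scale (adjusted p = 0.529), and *Adar*, which deaminates adenosine in double-stranded RNA, with -0.16 (adjusted p = 0.0757, and 0.0498 without si-*Fndc1* library 1).

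Of the 15 adaptors and kinases between the sensors and the interferon genes 13 were tested and 5 passed, 1 higher and 4 lower, with a list median of -0.091. *Ticam1*, the adaptor of the double-stranded RNA receptor Tlr3, fell from 7.0 ± 0.707 to 5.34 ± 0.334 FPKM (SD, n = 5 each), by 0.38 on the log2 scale (adjusted p = 0.00322, edgeR), with no overlap, and the fall also passed with the GC and length correction (-0.28, adjusted p = 0.0200). *Sting1*, the adaptor of cytosolic DNA sensing, fell from 5.45 ± 0.439 to 3.97 ± 0.898 FPKM, by 0.45 (adjusted p = 0.0345), but passed in 4 of 10 fits that left out 1 library. *Irak1*, a kinase below Toll-like receptors, fell by 0.30 (adjusted p = 0.0134, and 0.145 with the correction). *Tank*, an adaptor that binds the kinase Tbk1, was the gene that rose, from 5.02 to 6.09 FPKM (0.29, adjusted p = 0.00848, and 0.582 with the correction at 0.055), and is named here although the naming rule did not select it. *Tbk1* itself, which phosphorylates interferon regulatory factors, was at 0.14 (adjusted p = 0.0674, passing at 0.0483 without si-Control library 5 and at 0.0490 without si-*Fndc1* library 4), and turned to -0.0040 with the correction (adjusted p = 0.969). The adaptor *Tradd* was at -0.15 (adjusted p = 0.134). *Myd88*, which the naming rule did not select and whose test result is not given here, was at 5.66 to 6.25 FPKM in si-*Fndc1*. That was below every control (6.39 to 6.86 FPKM). Of the 13 tested genes 3 lay below every control in all si-*Fndc1* libraries and 1 above.

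The 21 interferon genes were at or near 0. Only 4 of them had a count in any library, *Ifna13*, *Ifne*, *Ifnz* and *Ifng*, and none reached the tested level. The counts of all 21 together were 13 to 22 in a si-Control library and 4 to 24 in a si-*Fndc1* library. *Ifnb1*, the gene of interferon beta, had no count in the 10 libraries, which allows up to 3 counts in each (0.0395 to 0.0533 CPM), a limit that covers counting error only. At this depth a difference between the groups was not detectable.

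Of the 11 receptor, Janus kinase and further STAT genes 10 were tested and 2 passed, both lower, with a list median of -0.022. *Ifngr2*, a chain of the interferon gamma receptor, fell from 10.6 ± 0.351 to 9.29 ± 0.345 FPKM (SD, n = 5 each), by 0.18 on the log2 scale (adjusted p = 0.00576, edgeR), with no overlap and in every fit that left out 1 library. *Stat3* fell by 0.18 as well (adjusted p = 0.0259) but passed in 5 of 10 such fits, and with the GC and length correction was at -0.024 (adjusted p = 0.716). The abundant kinases *Jak1* and *Jak2* were at -0.047 (adjusted p = 0.269) and -0.018 (adjusted p = 0.784), and the correction gave 0.084 (adjusted p = 0.128) for *Jak1* and -0.17 (adjusted p = 0.0158) for *Jak2*. The Janus kinase *Tyk2*, which the naming rule did not select, did not pass, although every si-*Fndc1* library (3.44 to 4.74 FPKM) was below every control (4.83 to 5.09). No tested gene of this list was above every control in all si-*Fndc1* libraries.

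Of the 15 negative regulators of the pathway 11 were tested and 5 passed, 3 higher and 2 lower, with a list median of -0.034. *Nlrx1*, a mitochondrial protein of the NLR family, fell from 1.9 ± 0.162 to 1.39 ± 0.128 FPKM (SD, n = 5 each), by 0.44 on the log2 scale (adjusted p = 0.00263, edgeR, and 0.0849 with the correction). *Ptpn2*, a phosphatase of Janus kinases and STAT proteins, rose from 7.69 ± 0.0629 to 9.17 ± 0.644 FPKM (0.26, adjusted p = 0.00366), which the correction brought to 0.0040 (adjusted p = 0.971). The deubiquitinase *Cyld* rose by a like amount (0.26, adjusted p = 0.0122) and passed with the correction (0.20, adjusted p = 0.0471). *Socs3*, an inhibitor of cytokine receptors that they induce, was at -0.094 (adjusted p = 0.213) and 0.061 when corrected, and the phosphatase *Ptpn1* at 0.20 (adjusted p = 0.576).

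Of the 42 other antiviral interferon-stimulated genes 23 were tested and 6 passed, 3 higher and 3 lower, with a list median of 0.064. *Rtp4* rose from 0.562 ± 0.154 to 0.958 ± 0.309 FPKM (SD, n = 5 each), by 0.76 on the log2 scale (adjusted p = 0.0435, edgeR), and passed in 3 of 10 fits that left out 1 library and not with the GC and length correction (adjusted p = 0.143). *Xaf1*, a cofactor of apoptosis, rose from 1.20 ± 0.0648 to 1.57 ± 0.128 FPKM (0.39, adjusted p = 0.00284) with no overlap, and passed with the correction too (0.33, adjusted p = 0.00982). *Ifi204*, a nuclear protein of the p200 family, rose by 0.32 (adjusted p = 0.00433), which the correction brought to 0.071 (adjusted p = 0.439). The genes that fell, which the naming rule did not select, were *Ifi27*, *Helz2* and *Znfx1*. *Ifi27*, a mitochondrial protein and the most abundant of the 3, fell from 39.3 ± 2.69 to 32.2 ± 2.88 FPKM (-0.28, adjusted p = 0.00952) with no overlap, and with the correction was at -0.42 (adjusted p = 0.000220). *Helz2*, a helicase, fell by 0.22 (adjusted p = 0.0448) but passed in 1 of 10 fits that left out 1 library, the one without si-*Fndc1* library 2 (adjusted p = 0.00127), and turned to 0.040 with the correction (adjusted p = 0.714). *Znfx1*, also a helicase, fell by 0.17 (adjusted p = 0.0193), which the correction brought to -0.011 (adjusted p = 0.900). *Ifitm2*, the neighbour and close relative of *Ifitm3*, was at 137 ± 7.72 FPKM in si-Control and 147 ± 12.6 in si-*Fndc1* (0.11, adjusted p = 0.204), and turned to -0.055 with the correction and to -0.012 with quantile normalisation. *Zc3hav1*, which binds viral RNA, was at -0.14 (adjusted p = 0.0698, passing at 0.0323 without si-*Fndc1* library 4). *Ifit2*, which the naming rule did not select, did not pass, although every si-*Fndc1* library (4.24 to 4.90 FPKM) was above every control. Its controls were at 3.63 to 3.75 FPKM but for si-Control library 2 at 0.409.

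Of the 27 genes of the interferon gamma response and antigen presentation 11 were tested and 4 passed, 2 higher and 2 lower, with a list median of 0.025. *Tapbp*, tapasin of the peptide-loading complex, fell from 27.3 ± 4.15 to 16.4 ± 0.609 FPKM (SD, n = 5 each), by 0.72 on the log2 scale (adjusted p = 0.000135, edgeR, and 0.00163 with the GC and length correction, at -0.49). *Tap2*, a chain of the peptide transporter, fell by 0.28 (adjusted p = 0.0299) and passed in 3 of 10 fits that left out 1 library and not with the correction (adjusted p = 0.562). *B2m*, the light chain of class I molecules, rose from 353 ± 20.9 to 440.0 ± 21.4 FPKM (0.33, adjusted p = 0.000471) with no overlap, but passed in the opposite direction with the correction (-0.13, adjusted p = 0.00625). The other gene that rose had a smaller change and was not selected by the naming rule. Of the 11 tested genes, 2 were above every control in all si-*Fndc1* libraries and 1 was below. Those above were *B2m* and *Irgm1*, a GTPase at 4.16 to 4.68 FPKM against 3.49 to 4.14 in si-Control, whose test result is not given here. Among those that did not pass, the proteasome activator subunit *Psme2* was at -0.16 (adjusted p = 0.113, and 0.0102 with the correction at -0.28) and the class I heavy chain *H2-D1* at 0.45 (adjusted p = 0.182).

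All 13 genes of the RNA interference machinery, through which an siRNA acts, were tested, and 4 passed, 1 higher and 3 lower, with a list median of -0.12. *Tnrc6c* and *Tnrc6b*, scaffold proteins that Argonaute recruits to repress its targets, fell from 3.90 ± 0.0440 to 2.88 ± 0.225 FPKM and from 5.68 ± 0.237 to 4.31 ± 0.215 (SD, n = 5 each). Their log2 fold changes were -0.43 (adjusted p = 0.000158, edgeR) and -0.39 (adjusted p = 6.07e-05), the groups did not overlap, and both passed with the GC and length correction at -0.23 and -0.18 (adjusted p = 0.00676 and 0.00382). *Prkra*, a partner of Dicer and activator of the kinase that *Eif2ak2* encodes, rose by 0.23 (adjusted p = 0.0116), which the correction brought to 0.034 (adjusted p = 0.71). *Ago2*, the Argonaute that cleaves siRNA targets, was at -0.20 (adjusted p = 0.0612), passed without si-Control library 2 (adjusted p = 0.0312) or si-*Fndc1* library 2 (adjusted p = 0.00405), and was at -0.048 with the correction (adjusted p = 0.564). The export factor *Xpo5* was at -0.053 (adjusted p = 0.363).

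All 10 genes of the list that follows the *Eif2ak2* kinase were tested as well, and 1 passed, with a list median of -0.031. This was *Eif2s1*, the subunit of the initiation factor that the kinase phosphorylates, which rose from 17.5 ± 0.599 to 21.5 ± 0.936 FPKM (SD, n = 5 each), by 0.30 on the log2 scale (adjusted p = 0.000131, edgeR, and 0.0767 with the correction at 0.082). The stress factors *Atf4* and *Ddit3*, whose levels rise when that subunit is phosphorylated, were at -0.19 (adjusted p = 0.160, and 0.0377 with quantile normalisation at -0.29) and -0.14 (adjusted p = 0.378).

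**Figure D4:**
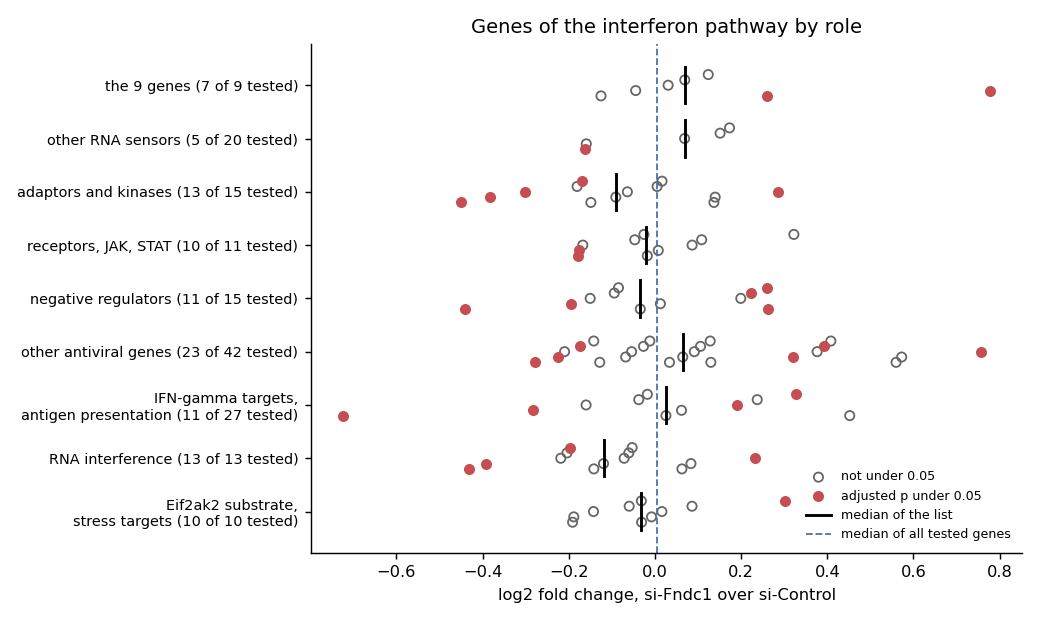
Log2 fold change of si-*Fndc1* over si-Control for every tested gene of the 9 genes and of 8 pathway lists (red, adjusted p under 0.05; open, not), with list medians (black) and the median of all tested genes (dashed). The interferon genes are left out because none was tested; genes lie on both sides of 0 in every list, and the medians lie between -0.12 and 0.069.

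Below the tested level lay 50 genes of the lists of sensors, antiviral genes and interferon gamma targets, many of which are strongly inducible, and these differed between the libraries of si-*Fndc1*. Their FPKM summed to 3.97 to 4.64 in the control libraries. In si-*Fndc1* libraries 1 to 5 the sum was 6.74, 7.50, 4.72, 4.97 and 4.07. Libraries 1 to 4 were thus above every control, 1 and 2 by the most, and library 5 lay within the control range. The mean was higher in si-*Fndc1* for 36 of the 50 and lower for 8, and 6 had no count at all. The highest si-*Fndc1* value belonged to library 1 for 16 of these genes and to library 2 for 17, but to each of libraries 3, 4 and 5 for 3. Libraries 1 and 2 of si-*Fndc1* also held the highest *Isg15* values, and library 2 the highest *Irf7* and *Eif2ak2* values. Other genes examined with them lay the other way. In si-*Fndc1* library 1 *Irf1* was at its lowest of all libraries (2.73 FPKM) and *Bst2* was below every control (10.2 FPKM). In si-*Fndc1* library 2 *Ifih1* was at its lowest of all libraries (0.124 FPKM). The like shares among all genes below the tested level are not given here. Neither the 36 against 8 nor the 16 and 17 is thus shown to be particular to these genes.

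Some of these genes are named here after their values had been seen. *Oas1a*, which makes the activator of the nuclease RNase L, had no count in si-Control and 40, 28, 4, 8 and 4 counts in si-*Fndc1* libraries 1 to 5. *Oas2*, of the same family, had no count in si-Control and 27 and 21 counts in libraries 1 and 2 alone. *Ifit3b*, which belongs to the genes most induced by interferon, had 18, 4, 13, 8 and 0 counts in si-Control and 74, 77, 11, 6 and 8 in si-*Fndc1*. *Gbp3*, a guanylate-binding protein, had 10, 22, 23, 8 and 19 counts in si-Control and 61, 93, 12, 30 and 18 in si-*Fndc1*.

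*Rsad2*, the gene of viperin, had 3 counts in 1 control library and 21 and 11 counts in si-*Fndc1* libraries 1 and 2. *Iigp1*, an interferon gamma-inducible GTPase, differed from these in being present in all si-*Fndc1* libraries, with 14, 76, 28, 34 and 15 counts and none in si-Control. In a fit without the filter on low levels 44 of the 50 genes could be tested and 2 passed, both higher in si-*Fndc1*, *Oas1a* (adjusted p = 0.00855, edgeR) and *Iigp1* (adjusted p = 0.00131), against 14.4% of the 28952 genes in that fit. Both rest on listed counts of at most 76 in a library, in a table whose counts pile up at multiples of 4.

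Hepatocyte markers summed to 109.7, 199.9, 194.7, 195.2 and 57.5 FPKM in si-*Fndc1* libraries 1 to 5, and all 15 of these markers that were tested rose, with *Alb* and *Apoa2*, an albumin and a lipoprotein gene, at 44.3 and 30.6 FPKM on average. Libraries 2, 3 and 4 held the highest sums and library 5 the lowest of that group. In bulk RNA, fewer cells of a type and less RNA per cell cannot be told apart. Of 10 macrophage and leukocyte markers the sum was 3.88 to 5.11 FPKM in si-*Fndc1*, against 4.43 to 5.17 in si-Control, with the defining genes *Ptprc*, *Adgre1* and *Tyrobp* at 0 in all libraries. The 2 markers of that list that were tested, *Cd14* and *Cd68*, were at -0.13 (adjusted p = 0.335) and -0.18 (adjusted p = 0.556) on the log2 scale. *Cd14* made up most of that sum, and 3 markers at far lower levels lay the other way. *Cx3cr1* had 4 to 15 counts in the si-*Fndc1* libraries against at most 3 in a control, *Itgam* was above every control in 4 of 5 si-*Fndc1* libraries (0.0542 to 0.0914 FPKM against at most 0.0493), and *Csf1r* was above them in libraries 2, 3 and 4 (0.109 to 0.114 FPKM against at most 0.0777). Of 6 endothelial markers the sum was 0.111 to 0.161 FPKM in the control libraries, and 0.134, 0.298, 0.161, 0.211 and 0.15 in si-*Fndc1* libraries 1 to 5, so that library 2, which was also highest in the low interferon-responsive genes, stood highest. *Tek* led that list, at 0.265 FPKM in si-*Fndc1* library 2 against at most 0.12 in a control, whereas *Vwf* was at 0.0202 ± 0.00661 FPKM in si-Control and 0.0105 ± 0.0103 in si-*Fndc1* (SD, n = 5 each), and *Cdh5* and *Emcn* were at 0 in all libraries. The part of these markers in the interferon-responsive genes was not tested. The muscle genes *Des* and *Tnnt3* were at 632 and 616 FPKM in si-Control. Of the 10 muscle markers, all tested, 3 passed upwards and 1 downwards (40.0%), near the 34.4% of all tested genes.

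**Figure D5:**
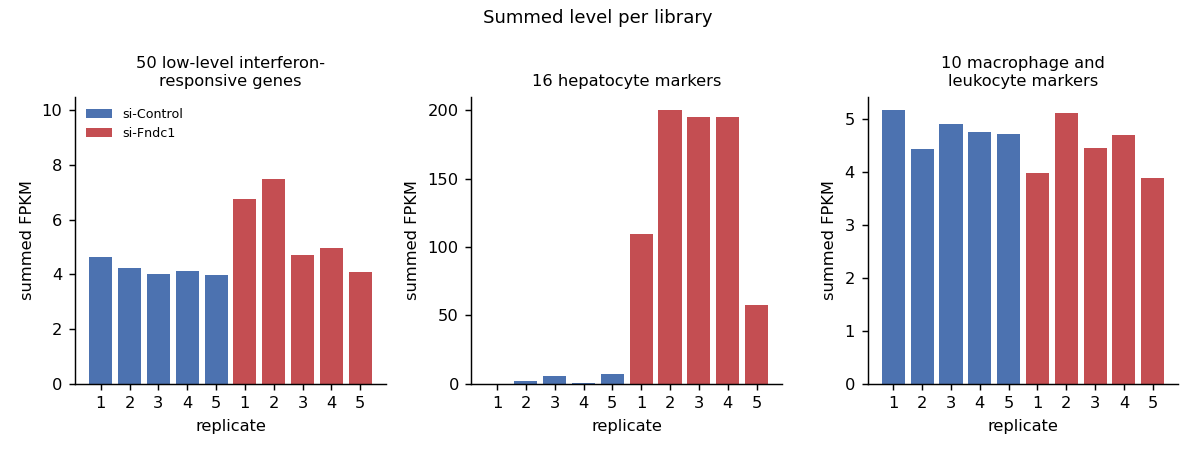
Summed FPKM per library (bars from 0; si-Control blue, si-*Fndc1* red, numbered by replicate) of 50 low-level interferon-responsive genes, 16 hepatocyte markers and 10 macrophage and leukocyte markers. The low interferon-responsive genes are highest in si-*Fndc1* libraries 1 and 2 (6.74 and 7.50 FPKM), and the hepatocyte markers in libraries 2, 3 and 4.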

How the data were processed

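RNA of differentiating C2C12 cells was sequenced, with 5 libraries per group, grouped by their labels, and 0 columns of values were without a sample. The authors deposited a table of counts per gene without normalization and, beside each count, an FPKM value, set to 0.0001 for genes with a count of 0. The methods of the study name TopHat, htseq-count and the mm10 genome, the series' description STAR and mm9, and the submitters' processing notes cutadapt 1.9, FastQC and GRCm39, so which of them made the table is not settled. The methods name fewer libraries than the 10 used here. No row named no gene.

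In R 4.3.3, edgeR 4.0.16 tested the counts of genes whose mean FPKM reached 0.5 (TMM normalization, quasi-likelihood test), with Benjamini-Hochberg adjustment over all 13548 tested genes and a threshold of 0.05. Intervals use the SE and 8 residual degrees of freedom. FPKM means were compared by exact permutation tests in scipy 1.17.1 (Python 3.11.15, numpy 2.4.6, pandas 2.3.3). Alternatives were DESeq2 1.42.0, its size factors in edgeR, other filters, single libraries left out, the replicate number as a block, limma 3.58.1 on log2(FPKM + 1) or log2(FPKM + 0.1), with quantile normalization as a further one, and an offset for GC content and length fitted by robust regression (MASS 7.3.60.0.1, splines of 5 degrees of freedom) for the 11185 genes (82.6%) with both values, GC content from NCBIM37 transcripts matched by gene identifier. Counts divided by 4, and leaving out si-Fndc1 libraries 1 and 2, were added after the data had been seen. Length was the median over libraries of the value implied by count, FPKM and library total. The fits were tested on simulated data. No library was a repeat of another, since all 20 pairs within a group differed beyond sampling noise (lowest chi-square per degree of freedom 39.95). Library totals ranged from 66771605 to 75995168 counts for si-Control and from 56332844 to 72839369 for si-Fndc1.

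The 9 genes and all lists were chosen with earlier results of these data known. A result of the list of RNA sensors is not reported here. In every list the text names up to 3 genes with the largest changes among those that passed, the 2 most abundant that did not pass, the interferon genes with a count, the 5 genes most like the 9, and the 2 most abundant of each marker list.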

Additional observations from a re-analysis of the deposited data

Results flagged for a closer look

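In 5 of 90 groups of 5 libraries that were checked, 1 library lay apart from the other 4, with a gap above 0.71 of the group's range, and chance alone gives about 1 in 20. *Irf1* was at 2.73 FPKM in si-*Fndc1* replicate 1, against 6.63 to 7.68 in the others of its group. *Tradd* was at 10.2 FPKM in si-Control replicate 2, against 8.17 to 8.66. *Tapbp* was at 34.6 FPKM in si-Control replicate 3, against 24.5 to 26.8. *Tnrc6c* was at 2.49 FPKM in si-*Fndc1* replicate 4, against 2.91 to 3.08. *Tnrc6b* was at 5.28 FPKM in si-Control replicate 2, against 5.74 to 5.91. Not every gene of the lists was in this check. *Ifit2* in si-Control replicate 2, at 0.409 FPKM against 3.63 to 3.75, was not.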

How the results depend on the processing

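The number of the 9 genes that passed was 2 in the reported fit, 1 without the filter or with the replicate number as a block, and 0 with the GC and length offset, with or without the block (edgeR, 1 at an unadjusted p under 0.05 with the offset alone). It was also 1 at a mean FPKM of at least 5, a fit that did not hold *Isg15* (mean 1.34 FPKM). Leaving out 1 library gave 1 to 2, and leaving out si-*Fndc1* libraries 1 and 2 gave 1 (against 31.5% of all genes), but these were picked after their high *Isg15* and low-level interferon gene values had been seen, so a lower *Isg15* change follows from that choice. The 28 other pathway genes became 18 with the block, 17 with the offset, 9 with both and 21 to 29 without 1 library. All genes became 2642 with the offset, 1749 with offset and block and 4016 to 4626 without 1 library, and with the block alone 3572. The replicate numbers did not pair the libraries (correlations of deviations between -0.05 and 0.06 over 13548 genes, and only number 3 correlated best with its own), so the block is no paired test.

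*Isg15* was at 0.78 without the filter (adjusted p = 0.0762), 0.76 with the block, 0.61 with the offset, 0.58 with offset and block, 0.50 without si-*Fndc1* libraries 1 and 2, and 0.68 to 0.95 without 1 library. *Ifitm3* was at 0.037 with the offset, 0.038 with offset and block, and 0.24 to 0.28 without 1 library. *Eif2ak2* was at -0.034 with the offset, -0.039 with offset and block, and 0.088 to 0.18 without 1 library. *Stat2* was at 0.015 with the offset, 0.023 with offset and block, and -0.089 to 0.018 without 1 library. *Irf1* was at -0.035 with the block, -0.033 and -0.051 by limma with pseudocounts of 1 and 0.1, -0.032 with quantile normalization, and -0.048 to 0.22 without 1 library. *Irf9* and *Bst2* kept their sign and did not pass in any fit run, at 0.0069 to 0.14 and at -0.23 to -0.038. *Fndc1* was at -0.067 with the offset and -0.068 with offset and block.

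Of the other named genes, *Jak1* turned with the offset (0.084, and 0.084 with block), as did *Socs3* (0.061 and 0.061), *B2m* (-0.13 and -0.13), *Ifitm2* (-0.055 and -0.055, also -0.012 with quantile normalization) and *Tbk1* (-0.0040 and -0.0028). *Ptpn2* turned to -0.0011 with offset and block, and *Jak2* lay at -0.045 to 0.00085 without 1 library, the last of these without si-*Fndc1* replicate 4. The cause of these moves was not tested. The ISRE was found in 5 of the 9 genes on the gene's own strand alone and in 6 with the shorter GAAANNGAA. Depth limits *Irf7*, *Ifih1* and the interferon genes, which rest on few counts whose unit is uncertain.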
